A study of Zea mays with 6 samples.

Results

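Maize kernels with an opaque or floury texture carry a soft, chalky endosperm in place of the hard, glassy one, and the genes behind these mutants are named after that look. Described here are the 5 such genes that encode neither a zein nor a transcription regulator: opaque1 (Zm00001d052110), floury1 (Zm00001d003398), opaque10 (Zm00001d033654), opaque5 (Zm00001d020537) and opaque7 (Zm00001d026649). They were chosen by their names in the deposited gene descriptions, where each is called opaque endosperm or floury endosperm with its number, and they are 5 of the 39179 genes in the count table. No expression value is part of that rule, but the group was put together with earlier results of this same contrast known, so the number of its genes that changed is given as a description. All 5 were expressed enough to be among the 22259 genes tested. The RNA came from developing endosperm at 20 days after pollination, with 3 libraries from nacRNAi (line Ni4, in the B73 inbred, an RNA interference line against NAC genes) and 3 libraries from wild-type B73. Ni4 is a single transgenic line, and the promoter of its construct is not given in the sources used here.

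Zeins, the storage proteins of maize endosperm, are made on the endoplasmic reticulum and packed inside it into round protein bodies, and starch granules pressed against these bodies give a hard kernel. Protein bodies of abnormal size, shape or layering, or damaged amyloplasts, leave a soft one. The 5 genes fall into these branches. Opaque1 is a myosin XI motor that moves the endoplasmic reticulum along actin. Floury1 is a zein-binding membrane protein of the endoplasmic reticulum that lies around protein bodies, and Opaque10 is a cereal-specific protein that places zeins within them and is known to bind Floury1 and Opaque1. Opaque5 is a monogalactosyldiacylglycerol synthase, which makes the main galactolipid of plastid membranes, and Opaque7 is an acyl-activating enzyme that acts on oxalate.

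Total counts per library ran from 59084750 to 69670876 in nacRNAi and from 55812999 to 64603196 in wild type. Each of the 5 genes held between 1011 and 17912 counts in every library, and the counting error of the lowest of these is 3.15%. The targets were taken as NAC130 and NAC128 from knowledge of the study. NAC130 stood at 238, 227 and 222 CPM in nacRNAi, against 1337, 1335 and 1055 CPM in wild type. NAC128 stood at 248, 300 and 284 CPM in nacRNAi, against 309, 359 and 272 CPM in wild type, and did not pass (log2 fold change -0.18, SE 0.11, edgeR adjusted p = 0.245). CPM are counts set to a common library size with TMM factors, which makes fold changes relative to the typical gene. Whether the 3 libraries of each line are separate plants or ears is not stated by the labels, and the spread behind the p-values may therefore be technical.

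The defining transcripts of starchy endosperm were abundant in both lines. The 19 marker genes of this tissue, which are genes described as zeins and a pair of ADP-glucose pyrophosphorylase genes, summed to 107021 to 121013 CPM in nacRNAi and to 295158 to 334636 CPM in wild type, and none of them was at 0 in every library. The 109 embryo and oil body genes, of which 48 were at 0 in every library, summed to 1470 to 1807 CPM in nacRNAi and to 2431 to 2607 CPM in wild type. The 4 aleurone genes summed to 102 to 109 CPM in nacRNAi and to 118 to 137 CPM in wild type, and the 6 basal transfer layer genes to 0.642 to 11.8 CPM in nacRNAi and to 1.40 to 14.2 CPM in wild type. The 17 green tissue genes summed to 35.2 to 41.9 CPM in nacRNAi and to 35.5 to 43.2 CPM in wild type. The part of these marker differences in the results below was not tested, and in bulk tissue fewer cells of a type and less RNA per cell cannot be told apart.

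The 3 genes whose products act at protein bodies and the endoplasmic reticulum, opaque1, floury1 and opaque10, were 2.88-fold to 4.28-fold lower in nacRNAi, while the 2 enzyme genes, opaque5 and opaque7, did not pass the test. Thus 3 of the 5 genes were called lower and 0 higher, where 24.0% of all tested genes were called lower and 23.2% higher (an adjusted p under 0.05 in the quasi-likelihood test of edgeR, by the method of Benjamini-Hochberg over all genes). Opaque5 and opaque7 had unadjusted p-values of 0.108 and 0.158, and the DESeq2 Wald test also called 3 genes lower and 0 higher.

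The opaque1 gene (chromosome 4, 179900072 to 179926942, minus strand, genome build not given in the sources used here) is annotated in the files with the myosin complex and motor activity. It had 25.0, 26.1 and 24.5 CPM in nacRNAi, against 88.2, 83.2 and 93.5 CPM in wild type. The lines did not overlap, and the lowest wild-type library was more than 3 times as high as any nacRNAi library. Its means were 25.2 ± 0.825 CPM in nacRNAi and 88.3 ± 5.17 CPM in wild type (SD, n = 3 each), a difference of -1.81 on the log2 scale (SE 0.07, edgeR adjusted p = 2.63e-06). The fall was 3.50-fold, with a 95% interval of 3.15 to 3.91, and 4.80% of tested genes fell further. The exact two-sided permutation p over the 6 libraries was 0.1, the smallest that 3 against 3 libraries allow.

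The floury1 gene (chromosome 2, 43019871 to 43020779, minus strand) is annotated as integral to the membrane of the endoplasmic reticulum. It had 39.4, 43.8 and 42.6 CPM in nacRNAi, against 120.1, 114 and 127.6 CPM in wild type. Both lines were tight and far apart, with means of 41.9 ± 2.29 CPM in nacRNAi and 120.5 ± 6.87 CPM in wild type (SD, n = 3 each). On the log2 scale the change was -1.52 (SE 0.07, edgeR adjusted p = 5.92e-06), a fall of 2.88-fold with a 95% interval of 2.57 to 3.22. It was the smallest of the 3 falls, and 6.35% of tested genes fell further.

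The opaque10 gene (chromosome 1, 269766090 to 269773110, minus strand) carries the same membrane annotation as floury1. It had 63.6, 55.1 and 54.5 CPM in nacRNAi, against 334, 196 and 210 CPM in wild type. The lines did not overlap, but wild-type replicate 1 stood well above the other 2 wild-type libraries. The means were 57.7 ± 5.07 CPM in nacRNAi and 247 ± 75.6 CPM in wild type (SD, n = 3 each), so the spread was 8.78% of the mean in nacRNAi and 30.6% in wild type. On the log2 scale the change was -2.10 (SE 0.22, edgeR adjusted p = 0.00059), the largest of the 5, with a fall of 4.28-fold and a 95% interval of 2.95 to 6.21. Without wild-type replicate 1 it was -1.81 (edgeR adjusted p = 6.16e-05), about equal to that of opaque1, so the place of opaque10 at the top of the 5 rests on that library.

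The opaque5 gene (chromosome 7, 121388769 to 121395911, minus strand) is annotated with the transfer of galactose to diacylglycerol at the inner chloroplast membrane. It had 20.3, 20.3 and 21.1 CPM in nacRNAi, against 23.1, 24.7 and 20.8 CPM in wild type. The lines overlapped, since nacRNAi replicate 3 was above wild-type replicate 3. The means were 20.5 ± 0.451 CPM in nacRNAi and 22.9 ± 1.98 CPM in wild type (SD, n = 3 each). The log2 fold change of -0.15 did not pass (SE 0.09, edgeR adjusted p = 0.174), and its 95% interval ran from -0.35 to 0.04. With a trend of fold change with gene length removed, an alternative chosen after seeing the data, it passed as lower at -0.30 (edgeR adjusted p = 0.0238).

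The opaque7 gene (chromosome 10, 149382212 to 149384169, minus strand) is annotated with oxalate-CoA ligase activity. It had 58.4, 47.8 and 42.8 CPM in nacRNAi, against 47.8, 64.7 and 64.5 CPM in wild type. The libraries of both lines were interleaved, with nacRNAi replicate 1 the high one of its line and wild-type replicate 1 the low one of its line. The means were 49.6 ± 7.98 CPM in nacRNAi and 59.0 ± 9.73 CPM in wild type (SD, n = 3 each). The log2 fold change of -0.25 did not pass (SE 0.16, edgeR adjusted p = 0.236), and its 95% interval of -0.62 to 0.12 covers changes in either direction.

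**Figure D1:**
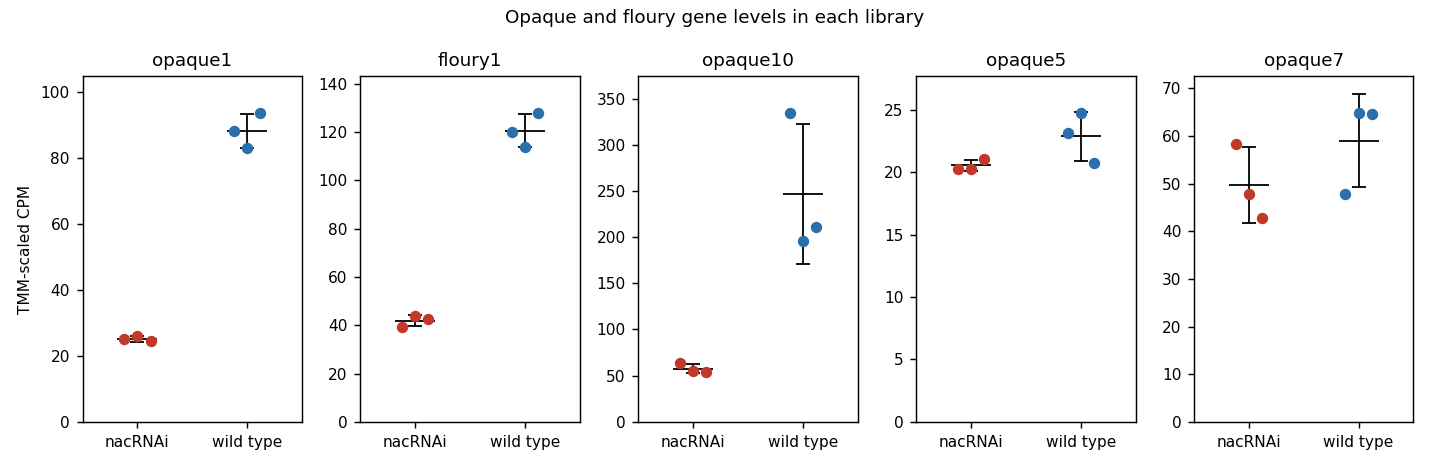
Level of each of the 5 genes in each library, in TMM-scaled CPM on axes that start at 0; points are libraries, horizontal bars are line means and error bars are SD (n = 3). For opaque1, floury1 and opaque10 all nacRNAi libraries lie below all wild-type libraries, with opaque10 at 334 CPM in wild-type replicate 1, while for opaque5 and opaque7 the lines overlap.

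The fold changes above are relative to the typical gene, and the scale matters for the 2 enzyme genes. When only the library totals were used for scaling, the median of all tested genes moved to 0.52 on the log2 scale, and 9.00% of tested genes were called lower and 50.5% higher. On that scale opaque1, floury1 and opaque10 still passed as lower, at -1.30, -1.01 and -1.58 (edgeR adjusted p = 9.34e-06, 3.35e-05 and 0.000849). Opaque5 passed as higher, at 0.36 (SE 0.08, edgeR adjusted p = 0.00491), and opaque7 stood at 0.26 and did not pass (SE 0.16, edgeR adjusted p = 0.182). Both values lie below the median gene of that scale.

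The authors' FPKM values, scaled by gene length and library size, gave the same direction for the 3 lower genes and the opposite one for the enzymes. On log2(FPKM + 1) the median gene stood at 0.38, and 6.93% of tested genes were called lower and 57.0% higher. Opaque1 fell by 2.05 on this scale (SE 0.09, limma adjusted p = 3.27e-05) and opaque10 by 1.45 (SE 0.18, limma adjusted p = 0.000692). Floury1 fell by only 0.42 (SE 0.14, limma adjusted p = 0.0385). Opaque5 and opaque7 were higher in nacRNAi, by 0.61 (SE 0.08, limma adjusted p = 0.000726) and by 0.63 (SE 0.17, limma adjusted p = 0.0182).

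**Figure D2:**
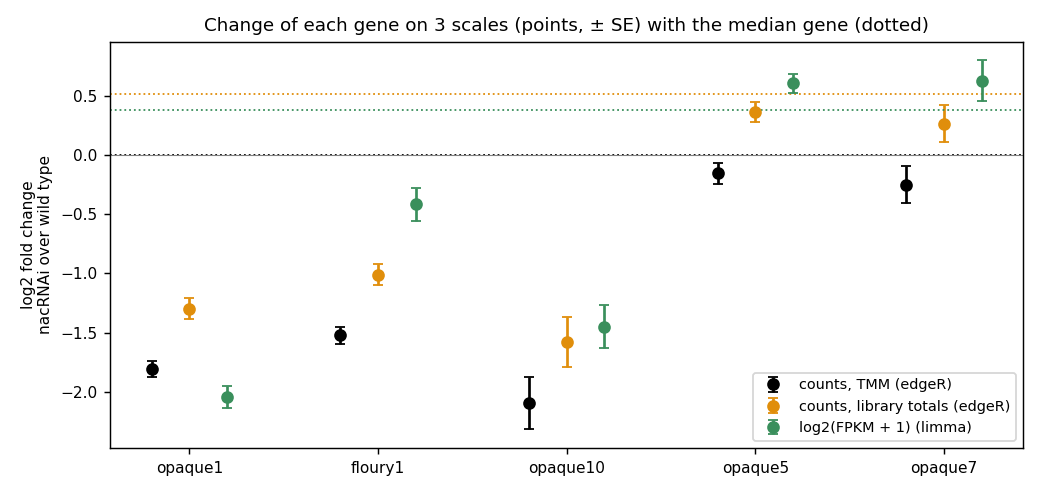
Log2 fold change of each gene, nacRNAi over wild type, on counts scaled by TMM, on counts scaled by library totals and on log2(FPKM + 1); bars are ± SE and dotted lines mark the median of all tested genes on each scale (0.52 for library totals and 0.38 for log2(FPKM + 1)). Opaque1, floury1 and opaque10 lie below 0 on all 3 scales, whereas opaque5 and opaque7 lie below 0 with TMM and above 0 on the other 2.

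Ratios of counts between 2 of these genes inside one library need no scaling between libraries. There were 1.23, 1.29 and 1.16 opaque1 counts per opaque5 count in nacRNAi, against 3.81, 3.37 and 4.50 in wild type. The ratio of floury1 to opaque5 was 1.94, 2.16 and 2.02 in nacRNAi, against 5.19, 4.61 and 6.14 in wild type. For opaque10 to opaque5 it was 3.13, 2.71 and 2.59 in nacRNAi, against 14.4, 7.94 and 10.1 in wild type. In each case the wild-type libraries were all above the nacRNAi libraries, and the wild-type mean was 3.17, 2.61 and 3.85 times the nacRNAi mean. With opaque7 as the denominator the lines did not overlap either, and the wild-type means were 2.96, 2.42 and 3.78 times those of nacRNAi. The exact two-sided permutation p was 0.1 for each of these 6 ratios, the smallest possible. These pairs were set by which genes fell, so the values describe that difference and do not test it.

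Levels can be compared between genes only per length, in FPKM. In nacRNAi the order was opaque7 (51.1 ± 7.28 FPKM), floury1 (45.9 ± 2.76), opaque10 (12.9 ± 1.07), opaque1 (8.35 ± 0.986) and opaque5 (7.53 ± 0.483). Opaque7 overlapped floury1, and opaque1 overlapped opaque5 (SD, n = 3 each). In wild type the order of levels was floury1 (62.3 ± 12.6 FPKM), opaque10 (37.8 ± 10.6), opaque1 (37.5 ± 1.09), opaque7 (33.0 ± 7.29) and opaque5 (4.60 ± 0.274). There opaque10, opaque1 and opaque7 overlapped, while floury1 lay above and opaque5 far below. By this measure opaque1 was above 68.2% of tested genes in nacRNAi and above 93.9% in wild type, and opaque7 above 94.2% in nacRNAi and 93.1% in wild type. These levels and the nacRNAi order rest on the authors' FPKM, whose implied gene length differed between the lines, as the values of implied length given further on show. When the nacRNAi values were recomputed from the counts at the implied length of wild type, a choice made after seeing the data, opaque1 stood at 15.3 ± 0.327 FPKM and floury1 at 30.5 ± 1.71 FPKM (SD, n = 3 each). Opaque7 (39.3 ± 6.07), opaque10 (12.7 ± 1.07) and opaque5 (5.92 ± 0.208) followed the same recomputation. In that order all 3 opaque1 libraries were above all opaque10 libraries and above all opaque5 libraries, so the place of opaque1 next to opaque5 in nacRNAi does not hold at a common length.

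**Figure D3:**
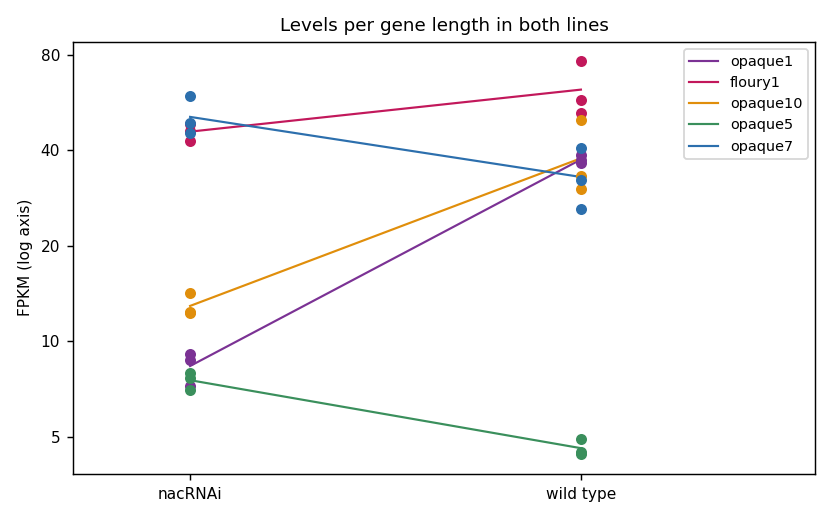
FPKM of the 5 genes on a log axis, with nacRNAi on the left and wild type on the right; points are libraries and lines join the line means. Floury1, opaque10, opaque1 and opaque7 have means of 33.0 to 62.3 FPKM in wild type, whereas in nacRNAi opaque7 and floury1 lie at 51.1 and 45.9 FPKM and opaque10 and opaque1 at 12.9 and 8.35 FPKM.

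Zeins, the cargo that Floury1 and Opaque10 handle, fell as well. Of the other genes named opaque or floury in the files, floury2, an alpha-zein gene, averaged 5414 ± 553 CPM in nacRNAi and 28494 ± 5069 CPM in wild type (SD, n = 3 each), a log2 fold change of -2.40 (SE 0.15, edgeR adjusted p = 2.33e-05). The alpha-zein gene floury4 was lower by a log2 fold change of -1.39 (SE 0.11, edgeR adjusted p = 4.69e-05), and the zein activator opaque2 by one of -0.96 (SE 0.15, edgeR adjusted p = 0.00229). The fourth, Opaque2 heterodimerizing protein 1, stood at -0.38 and did not pass (edgeR adjusted p = 0.223). The 3 genes described as 22-kDa alpha-zeins stood at -1.40 (Zm00001d048806, SE 0.68, not passing at an edgeR adjusted p of 0.1499), -0.89 (Zm00001d048809, SE 0.18) and -1.29 (Zm00001d048812, SE 0.13). The 27-kDa gamma-zein gene Zm00001d020592 was lower by a smaller amount, at -0.67 (SE 0.09, edgeR adjusted p = 0.000583). Zm00001d005793 had the lowest value of these, -5.28 (SE 0.13, edgeR adjusted p = 5.39e-07). It is taken here as coding for the gamma-zein of 16 kDa, although its description reads Zein-beta. Alpha-zein genes have close copies among which the authors' counting may have split reads, which makes their single values uncertain.

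The next values set each gene against the summed counts of 20 zein genes of the same library, floury2, floury4 and the 27-kDa gamma-zein gene (described as Glutelin-2) among them. The 27-kDa gamma-zein gene is a large part of this sum. It stood at 78315, 73674 and 76255 CPM in nacRNAi, against 119270, 128202 and 115010 CPM in wild type, a log2 fold change of -0.67. There were 0.125, 0.129 and 0.129 opaque1 counts per 1000 zein counts in nacRNAi, against 0.180, 0.166 and 0.214 in wild type. For floury1 the values were 0.197, 0.216 and 0.225 in nacRNAi, against 0.2455, 0.228 and 0.292 in wild type, so the lines were nearly in contact. For opaque10 they were 0.318, 0.272 and 0.288 in nacRNAi, against 0.683, 0.392 and 0.482 in wild type. Against this sum, all 3 genes had less RNA per zein count in every nacRNAi library than in any wild-type library. For all 3 genes, and most of all for floury1, this separation may rest on the 27-kDa gamma-zein gene, since values without it were not computed. Opaque5 stood the other way, with 0.101, 0.1003 and 0.111 in nacRNAi, against 0.0473, 0.0494 and 0.0476 in wild type, and so did opaque7, with 0.292, 0.236 and 0.226 in nacRNAi, against 0.0977, 0.129 and 0.148 in wild type.

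The lists of relatives and partners are read against the shares of all tested genes, 23.2% higher and 24.0% lower. Beside opaque1, 66 genes are described as myosins or myosin-related, of which 44 were tested, and 18 were called higher (40.9%) and 3 lower (6.82%), with a median log2 fold change of 0.45, where the median of all tested genes was at 0. Many of these descriptions cover coiled-coil proteins that are not motors. A narrowing made after values were seen kept the 20 genes that the deposited GO terms tie to the myosin complex or to motor activity. Of these, 14 were tested, 8 were called higher and 0 lower, with a median of 0.55. With the length trend removed the counts were 5 higher and 1 lower.

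The myosin gene myosin1 (Zm00001d044303) averaged 30.6 ± 1.66 CPM in nacRNAi and 15.3 ± 0.81 CPM in wild type (SD, n = 3 each), a log2 fold change of 1.00 (SE 0.08, edgeR adjusted p = 5.99e-05), which is the opposite direction to opaque1. Other motor genes with the same direction were a gene for a myosin with a Dil domain, Zm00001d011197, at 0.68 and Myosin-2, Zm00001d021785, at 0.95 (edgeR adjusted p = 0.00019 and 0.00155). The most strongly supported change of the wider list was a fall, that of the myosin heavy chain-related gene Zm00001d049764, at 98.5 ± 8.73 CPM in nacRNAi and 205 ± 11.3 CPM in wild type (log2 fold change -1.05, SE 0.08, edgeR adjusted p = 4.69e-05).

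Floury1 belongs with proteins that bind zeins or myosins. A list of 16 other genes was taken by the words zein-binding, myosin-binding, DUF593 or GTD-binding in their descriptions, and 11 were tested. None of the tested genes is described as zein-binding, and Zm00001d025622 and Zm00001d047881 are described only by the DUF593 domain. Of the tested genes, 6, with Zm00001d047881 among them, were called higher (54.5%) and 1 lower (9.09%), with a median log2 fold change of 0.39. The 1 that fell was Zm00001d024102, described as Myosin-binding protein 7, at 3.12 ± 0.256 CPM in nacRNAi and 10.4 ± 0.698 CPM in wild type (log2 fold change -1.74, SE 0.13, edgeR adjusted p = 3.58e-05). Another gene with that description, Zm00001d034380, was higher at 0.69 (SE 0.11, edgeR adjusted p = 0.00121), and Myosin-binding protein 1, Zm00001d043295, was higher at 1.88 (SE 0.18, edgeR adjusted p = 0.000142).

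Actin filaments are the track of the Opaque1 motor. Of 140 genes of the actin cytoskeleton 94 were tested, and 21 were called higher and 20 lower, with a median log2 fold change of 0.11. These shares, 22.3% and 21.3%, are close to those of all tested genes. The actin-bundling villin gene Villin-4 (Zm00001d006533) rose to 108 ± 6.82 CPM in nacRNAi, against 41.9 ± 2.62 CPM in wild type (log2 fold change 1.37, SE 0.07, edgeR adjusted p = 1.19e-05). Formin-like protein 6 (Zm00001d032545), of a family that nucleates actin filaments, had 0.0121, 0.0559 and 0.0697 CPM in nacRNAi, against 5.57, 7.22 and 4.77 CPM in wild type. Its nacRNAi values lie near the level of 3 counts, which is 0.0362 to 0.0419 CPM in those libraries, so no fold is given (edgeR adjusted p = 1.99e-05). Stomatal closure-related actin-binding protein 1 (Zm00001d047435) was lower, with a log2 fold change of -2.48 (SE 0.18, edgeR adjusted p = 4.96e-05).

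Around opaque5, 26 genes of galactolipid and sulfolipid synthesis and transport include 17 that were tested, with 4 called higher (23.5%, close to the share of all tested genes), 2 lower (11.8%) and a median log2 fold change of 0.12. The 3 with the smallest adjusted p were higher, at 0.59 for TRIGALACTOSYLDIACYLGLYCEROL 2 (Zm00001d011775), a lipid transfer protein of the plastid envelope, 1.36 for a sulfolipid synthase gene described as SQD2 (Zm00001d028539) and 0.52 for digalactosyldiacylglycerol synthase 2 (Zm00001d028571). Their edgeR adjusted p-values were 0.00139, 0.00299 and 0.00373. The 2 that fell, named after their values were seen, were another gene described as SQD2 (Zm00001d008600), at -0.99 (SE 0.26, edgeR adjusted p = 0.015), and monogalactosyldiacylglycerol synthase 2 (Zm00001d031428), which has the same described activity as opaque5. This synthase gene had 0.205, 0.238 and 0.586 CPM in nacRNAi, against 2.16, 2.08 and 0.678 CPM in wild type, a log2 fold change of -2.26 (SE 0.59, edgeR adjusted p = 0.0156). Its level was low, and wild-type replicate 3 lay close to the nacRNAi libraries. Around opaque7, 29 genes of acyl-activating enzymes and their relatives include 21 tested, with 4 higher, 5 lower and a median of -0.09. Those are 19.0% and 23.8% of the tested genes of the list, near the shares of all tested genes. Acyl-activating enzyme 17 (Zm00001d020343) and 16 (Zm00001d034832) were higher, at 0.94 and 0.93 (edgeR adjusted p = 8.47e-05 and 0.000642), and 4-coumarate--CoA ligase-like 7 (Zm00001d033055) was lower at -0.63 (edgeR adjusted p = 0.00284).

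**Figure D4:**
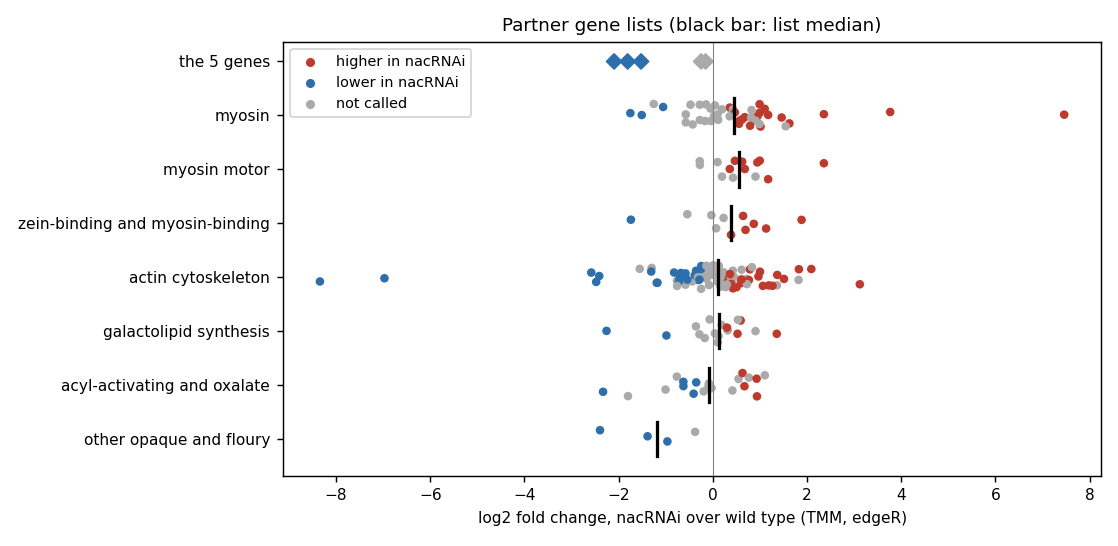
Log2 fold change, nacRNAi over wild type, of each tested gene in the lists around the 5 genes; red points are higher, blue points lower and grey points not called at an edgeR adjusted p under 0.05, and black bars are list medians. The opaque1, floury1 and opaque10 points lie from -1.52 to -2.10, whereas the myosin list has a median of 0.45 and the other opaque and floury genes one of -1.18.

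The count and FPKM tables can be set against each other gene by gene. With the sum of a library's deposited counts taken as its total, a count and an FPKM match only at a certain gene length. This implied length was 3273, 3544 and 4102 bases for opaque1 in nacRNAi, against 2008, 1800 and 2110 bases in wild type. The lines did not overlap, and 99.7% of the 15952 genes compared had a lower shift between the lines than the log2 value of 0.88 of opaque1. For floury1 it was 1091, 1120 and 1067 bases in nacRNAi, against 1729, 1745 and 1455 bases in wild type, a shift of -0.59 with 3.999% of genes below it. All these floury1 values exceed the 909 bases that its gene model spans, so they cannot be read as the length of that model. Opaque10 held at 5347, 5324 and 5345 bases in nacRNAi, against 5554, 5218 and 5536 bases in wild type. For opaque5 and opaque7 the shifts were -0.35 and -0.38, where the median of all genes was -0.18. The length that the authors used for a gene is not given in the sources used here, and the source of these shifts was not tested. The comparison here is with counts scaled by library totals, not by TMM. By construction, an implied length that is higher in nacRNAi goes with a larger fall in FPKM than in those counts, as for opaque1. One that is lower goes with a smaller fall, as for floury1.

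**Figure D5:**
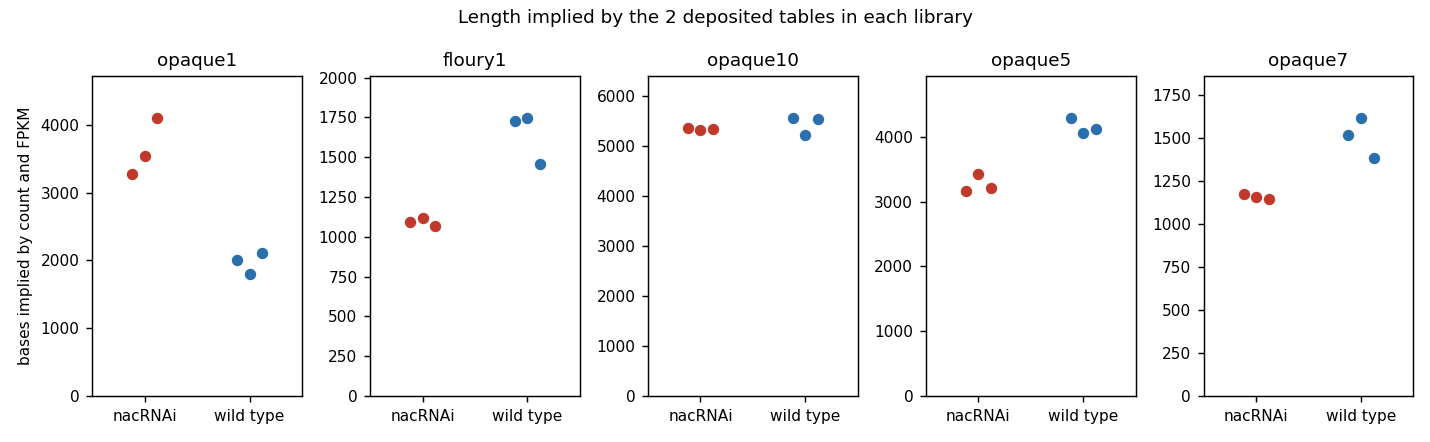
Implied length in bases at which the deposited count and the deposited FPKM of a library match, with the sum of deposited counts as library total, for each gene, on axes that start at 0. Points are libraries, and the values are not lengths of the gene models. The nacRNAi libraries lie above the wild-type libraries for opaque1 (3273 to 4102 against 1800 to 2110 bases), below them for floury1, opaque5 and opaque7, and within their range for opaque10.

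By the listed positions, no other gene model overlapped any of the 5 genes. How reads that match several genes were counted is not given in the sources used here. Of the 20 flanking models, 2 on each side, 12 were tested. Of these, 2 were called lower and 1 higher, no more than the shares of all tested genes, 24.0% lower and 23.2% higher. The called flanking gene nearest to a falling gene was the UMP-CMP kinase family gene Zm00001d052108, 8649 bases from opaque1. It stood at 30.2 CPM in nacRNAi and 50.7 CPM in wild type (log2 fold change -0.75, edgeR adjusted p = 0.000144). Opaque10 lies 2306 bases from Zm00001d033655, a kinase gene that did not pass (0.11, SE 0.13, edgeR adjusted p = 0.507).

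Likeness of pattern was measured as the distance between log2 CPM profiles over the 6 libraries, each centred on its own mean, among 11636 genes. Nearest to opaque1 were Zm00001d008610, of the mitochondrial glycoprotein family, at a distance of 0.20 and the 10 kD zein gene Zm00001d045937 at 0.20. That zein averaged 11403 ± 1322 CPM in nacRNAi and 39634 ± 3732 CPM in wild type (SD, n = 3 each). Floury1 lay at a distance of 0.36 from opaque1 and opaque10 at 0.69, so none of the 3 was the closest to another. Nearest to floury1 were Zm00001d043504, with a calponin homology domain, at 0.16 and the methionyl-tRNA synthetase gene Zm00001d046891 at 0.16. Nearest to opaque10 were phosphate transporter3 (Zm00001d018445) at 0.35 and the NRT1/PTR family gene Zm00001d042680 at 0.43. Opaque5 was closest to the methyltransferase-related gene Zm00001d023366 at 0.04 and an mRNA-decapping enzyme-like gene, Zm00001d052561, at 0.04, and opaque7 to Vacuolar protein sorting-associated protein 29 (Zm00001d016049) at 0.12 and AGD10 (Zm00001d034885) at 0.13.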

How the data were processed

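RNA of developing endosperm was sequenced from 3 nacRNAi and 3 wild-type libraries. The authors deposited raw read counts per gene and, in a second table, FPKM values per gene, which are scaled by gene length and library size; log2 values were computed here from both deposited tables. The library kit was TruSeq mRNA, per the labels' protocols; aligner, counter, strand setting and build were not given in the sources used here. Counts were filtered with filterByExpr, scaled by TMM and tested with edgeR 4.0.16 (robust quasi-likelihood test, line as the only term, Benjamini-Hochberg over 22259 genes, threshold 0.05) in R 4.3.3. SE is the size of the log2 fold change over the square root of F. Alternatives used DESeq2 1.42.0, limma 3.58.1 on log2(FPKM + 1) and log2(FPKM + 0.1), other scalings, filters and thresholds, a replicate block and each library left out; the fit was checked on simulated data. Same-numbered libraries did not deviate together (correlations 0.01, -0.05 and -0.10), so numbers do not pair them. Intervals cover 95%. Genes named beyond the 5 are the up to 3 called with the smallest adjusted p in each list, the 2 nearest in pattern, targets and zeins; flanking genes, the myosin motor subset and opaque10's neighbour were chosen after values were seen. The 5 genes and the lists, taken by words in the gene descriptions, were chosen with earlier results of these data known. The files held 0 columns of other samples.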

Additional observations from a re-analysis of the deposited data

How the results depend on the processing

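Opaque1, floury1 and opaque10 were lower and passed under every alternative run, and without any 1 library their log2 fold changes ranged from -1.85 to -1.76, from -1.57 to -1.48 and from -2.24 to -1.81. Opaque5 (-0.21 to -0.10) and opaque7 (-0.38 to -0.15) depended on scale: library totals gave 0.36 and 0.26, log2(FPKM + 1) 0.61 and 0.63, log2(FPKM + 0.1) 0.70 and 0.64, and removal of the length trend, chosen after seeing the data, -0.30 and 0.012; the cause was not tested. In that order of the first 3 scales, 1, 2 and 2 of the 5 genes were called higher, 11233, 12679 and 12700 of all genes higher and 2004, 1542 and 1545 lower. Higher and lower calls in those scales were 54, 56 and 56 with 9, 5 and 5 for actin, 8, 9 and 9 with 1, 1 and 1 for acyl-activating, 11, 11 and 11 with 1, 0 and 0 for galactolipid genes, and 31, 28 and 29 higher myosins, with 1 and 1 lower on both FPKM scales. At an adjusted p under 0.01 there were 3296 genes higher, 13 and 12 actin, 2 and 1 acyl-activating and 0 lower galactolipid genes. The replicate block called 9273 genes, against 10519 without it, and 3 lower acyl-activating and 1 lower galactolipid gene; it gave -1.81, -1.52, -2.06, -0.15 and -0.25 for opaque1, floury1, opaque10, opaque5 and opaque7 and changed none of their calls. The 1 CPM filter left 1 lower galactolipid gene, and the length trend 6 lower myosins. Without 1 library, acyl-activating genes higher and lower ranged from 2 to 5 each, and galactolipid genes lower from 0 to 2. Depth limited none of the 5 genes, each with at least 1011 counts in every library.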
